A study of Homo sapiens with 4 samples.

Results

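TMEM genes encode proteins with membrane-spanning segments that were named, at the time, for that feature and a number, not for a shared function or ancestor. All protein-coding genes whose symbol starts with TMEM were taken from the table of YTHDF1 peaks, 74 genes with 205 listed windows, out of 7550 genes with 26819 windows in the whole table. They were compared with the other 6605 protein-coding genes, which had 24549 windows.

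YTHDF1 is a cytoplasmic reader of N6-methyladenosine (m6A), the most common internal modification of mRNA, and reader binding is known to influence the decay and translation of methylated transcripts. mRNAs of membrane proteins are translated at the endoplasmic reticulum (ER), from where their products move to the Golgi apparatus, lysosome and cell surface, while other membrane proteins go to mitochondria or the primary cilium. TMEM proteins are found in all of these places.

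RNA immunoprecipitation sequencing (RIP-seq) was performed in SNU638, an established human gastric cancer cell line. The groups were IP-YTHDF1 with 2 libraries and Input with 2 libraries. Cells of both groups overexpressed YTHDF1 and had IFN-γ at 10 ng/ml over 24 h, after 24 h without serum, so neither the overexpression nor IFN-γ differed between the groups. IP-YTHDF1 is RNA recovered with the protein (by an antibody to the FLAG tag, per the study's methods), and Input is RNA of the lysate. The table gives each 50 bp window 1 signal value and 1 q-value over all libraries. Depth and replicate spread are therefore unknown here, no test of IP-YTHDF1 against Input could be run, and the comparisons of genes below are descriptions without a p-value. The signal value is the authors' score, whose scale is not stated, and a higher value means a higher place in their ranking. For a gene with no listed window, absence of binding and absence of the transcript cannot be told apart.

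The strongest TMEM windows lay at the start of their genes. In 8 of the 10 TMEM genes with the largest strongest window, the centre of that window was within 300 bp of the 5′ end of the RefSeq gene interval (GRCh38.p14). TMEM60 led with 3.02 at a distance of 30.5 bp. TMEM41B, an ER lipid scramblase needed for autophagosome formation, had 2.90 at 213.5 bp. TMEM30A, the partner subunit of phospholipid flippases, reached 2.75 at 92.5 bp. TMEM43, the inner nuclear membrane protein also called LUMA, reached 2.81 at 113.5 bp. The other 4 were TMEM120B (2.89 at 125.5 bp), TMEM14A (2.86 at 75.5 bp), TMEM170A (2.82 at 107.5 bp) and TMEM248 (2.76 at 75.5 bp). Both exceptions were also in the 5′ part of the gene. TMEM231 had 2.93 at 419.5 bp, and TMEM127, a tumour suppressor of the endosomal system, had 2.74 at 605.5 bp.

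Below a strongest signal of 2.74, the lowest value among these 10 genes, the strongest window was within 300 bp of the 5′ end in 12 of 63 placed TMEM genes (19%). Among other protein-coding genes the shares were 347 of 1029 (33.7%) at or above 2.74 and 1228 of 5205 (23.6%) below it. In both sets the share was thus higher at the stronger signal. The share of 80% in TMEM genes at or above the limit rests on 10 genes chosen by their signal, and it was not tested.

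Of the TMEM windows that reach into the stretch around the transcription start that the RefSeq sequence table holds (250 bases before to 50 after the start, GRCh38.p14), 7 windows of 7 genes had at least 30 bases there. A stretch of 30 bases of each is printed below because these are windows at gene starts for which sequence was at hand. Sequences are 5′ to 3′ on the strand of the gene, and capitals mark GGAC, the core of the most common m6A motif.
TMEM60, chr7:77798385-77798414, minus strand: cgcagtcgtttgaggaggcggaactgaagt
TMEM43, chr3:14125061-14125090, plus strand: cccgcttggccctggagtccacgcggattt
TMEM140, chr7:135148092-135148121, plus strand: cgactgcgaaggcaagggggcaccagctca
TMEM216, chr11:61392462-61392491, plus strand: aggtctggagaggGGACatccgagcgaggg
TMEM263, chr12:106955921-106955950, plus strand: ccacatcctgagaGGACgcctctggagccg
TMEM9B, chr11:8964663-8964692, minus strand: gaGGACtttccagcgcaatggcgactccct
TMEM183A, chr1:203007445-203007474, plus strand: gccggctctccggccggagacatggcccgg

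GGAC, searched on the strand of the gene, was present in the bases held for 3 of these 7 windows, those of TMEM216, TMEM263 and TMEM9B. Each stretch was placed to include GGAC where it occurred and otherwise at the 3′ end of the bases held. In the sequence table, 3182 of 15843 protein-coding genes (20.1%) have GGAC in the first 50 bases of the transcript. Of the 3 matches, only that of TMEM263 lay inside the stretch that this share covers. Those of TMEM216 and TMEM9B lay upstream of the start in the sequence table, so the share is no background for the 7 windows. The start in the sequence table is not always the outermost 5′ end of the RefSeq gene interval, from which the distances in the text are measured. The windows of TMEM216, TMEM9B and TMEM183A lay upstream of the start in the sequence table, at offsets of -126, -250 and -206 for the first base held. Measured from the 5′ end of the interval, the centre of the TMEM216 window was outside the gene, at -101.5 bp, while those of TMEM9B and TMEM183A were inside it, at 269.5 and 75.5 bp. Only GGAC was searched and marked. The study reported the wider motif DRACH, in which D is A, G or T, R is A or G, and H is A, C or T. The unmarked stretches of TMEM60 (gaact) and TMEM183A (agaca) hold other forms of DRACH. In TMEM263, GGAC is followed by G, which DRACH excludes. A match is a string of letters and not a mapped m6A site.

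Over all windows, 54 of 204 placed TMEM windows (26.5%, Wilson 95% interval 20.9% to 32.9%) were within 300 bp of the 5′ end, against 4316 of 23062 windows of other protein-coding genes (18.7%, interval 18.2% to 19.2%). Only counting error enters these intervals, while adjacent windows share a transcript. Counted by gene the shares were close. A window at the 5′ end was listed for 29 of 73 placed TMEM genes (39.7%), beside a background of 37.8% of all placed protein-coding genes. TMEM184C and TMEM30A gave 5 such windows each, and TMEM41B gave 4. Without genes with 9 listed windows, the shares of windows were 25.3% for TMEM and 21.7% for other genes, a smaller gap than with them.

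Windows within 300 bp of the 3′ end were rare. They were listed for TMEM259 and TMEM42, 2 of 73 TMEM genes (2.74%), beside 3.46% of all placed protein-coding genes. Each gene interval, introns included, was divided into 5 equal parts, and from the 5′ end these held 47.1%, 9.8%, 7.35%, 12.7% and 23% of the TMEM windows. For other protein-coding genes the parts held 41.6%, 12.6%, 12.4%, 13.9% and 19.4%. In both sets the part at the 5′ end was the fullest and the part at the 3′ end came next. Exons, introns and untranslated parts were not analysed here.

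**Figure D1:**
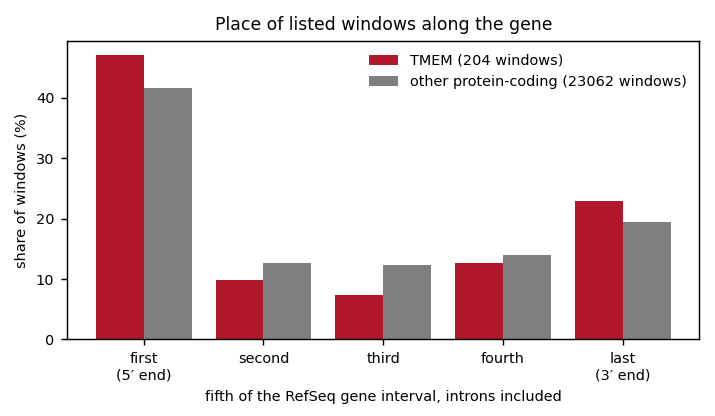
Share of listed windows (y axis, %) in each of 5 equal parts of the RefSeq gene interval from the 5′ end (x axis) for TMEM genes (red, 204 windows) and other protein-coding genes (grey, 23062 windows). The part at the 5′ end holds 47.1% of TMEM windows and 41.6% of the others.

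TMEM genes had a lower median number of listed windows than other protein-coding genes. The number per gene had a median of 2 (95% interval of the median over genes 1 to 3, n = 74), and for other protein-coding genes it was 3 (interval 3 to 3, n = 6605). A single window was listed for 32 of the 74 TMEM genes (43.2%, Wilson interval 32.6% to 54.6%), beside 29% of all listed protein-coding genes. A further 11 genes had 2 windows and 10 had 3, and 1 gene, TMEM127, had 8. No gene in the table has more than 9 windows. TMEM140 and TMEM184C stood at that limit (2.7% of TMEM genes, beside a background of 12.8%), and further windows of such genes may be missing. The medians were 2 and 2 when genes with 9 windows were left out, and also at a q-value of at most 0.001.

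**Figure D2:**
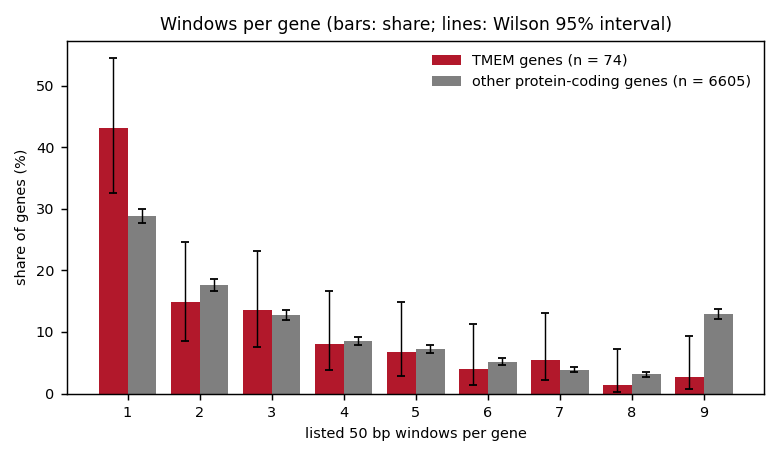
Share of genes (y axis, %) by number of listed 50 bp windows per gene (x axis) for 74 TMEM genes (red) and 6605 other protein-coding genes (grey), with Wilson 95% intervals. At 1 window the TMEM share is 43.2% and the other share 28.8%, and at 9 windows they are 2.7% and 12.9%.

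TMEM genes also had fewer windows tested. The number tested per gene, calculated from how far adjustment raised a gene's largest p-value, had a median of 21 in TMEM genes (interval 18 to 27) and 35 in the others, and it ran from 3 in TMEM14A to 93 in TMEM223. Among genes with up to 20 tested windows, the mean of listed windows was 1.80 in 35 TMEM genes and 1.78 in 1641 others. In the class of 21 to 50 tested windows it was 3.64 in 28 TMEM genes and 3.60 in 2999 others. In genes with over 50 tested windows, 11 TMEM genes averaged 3.64 and 1939 others 5.58. Up to 50 tested windows the means were thus close, and above it the mean of the 11 TMEM genes was lower. Listed windows made up 10.1% of the 2038 tested in TMEM genes and 8.94% of those in other genes. Every gene here has at least 1 and at most 9 listed windows, so this share depends on the number tested. The median share per gene was 12.5% in both sets with up to 20 tested windows. It was 10.4% in TMEM and 9.09% in other genes at 21 to 50, and 5.77% and 7.22% above 50.

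The strongest signal value per gene was close in the middle of both sets. Its median was 2.22 in TMEM genes (interval 2.07 to 2.35) and 2.23 in other protein-coding genes (interval 2.21 to 2.24). The central range, from the 25th to the 75th percentile, was 1.98 to 2.45 in TMEM genes and 1.94 to 2.56 in the others. At or above 2.93, the 90th percentile of all protein-coding genes, there were 2 TMEM genes, TMEM60 and TMEM231 (2.7%, Wilson interval 0.744% to 9.33%), beside a background of 10.3%. The largest value was 3.02 among TMEM genes and 6.76 among the others. Within classes of listed windows the medians were also near each other. They were 2.065 and 2.07 for genes with 1 window, 2.12 and 2.14 with 2 to 3, and 2.39 and 2.37 with 4 to 8, each time with TMEM first. In classes of tested windows they were 2.22 and 2.17 up to 20, 2.135 and 2.20 at 21 to 50, and 2.23 and 2.32 above 50. TMEM genes were thus higher in the class of fewest tested windows and lower in the others. A window at a q-value of at most 0.001 was present in 43 TMEM genes (58.1%), beside a background of 66.8%.

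**Figure D3:**
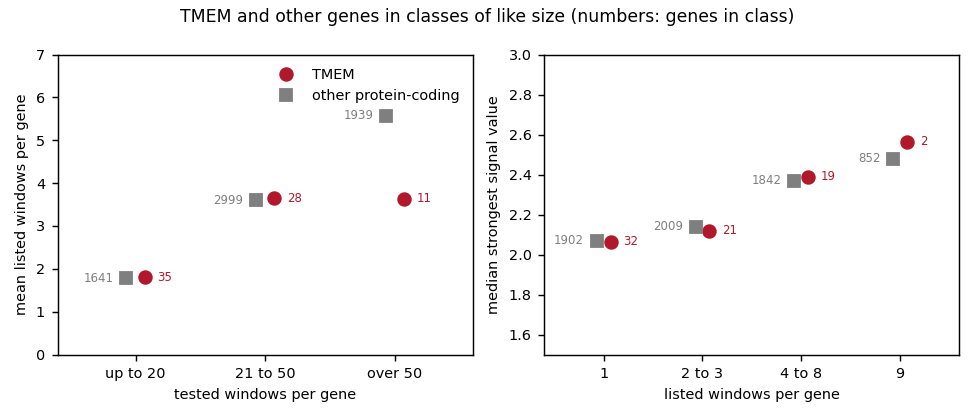
Left, mean listed windows per gene (y axis) by class of tested windows (x axis). Right, median strongest signal value (y axis, authors' score, starting at 1.5) by class of listed windows (x axis), for TMEM genes (red) and other protein-coding genes (grey), with the number of genes beside each point. The points nearly coincide except for listed windows in genes with over 50 tested windows, 3.64 against 5.58, and for genes with 9 windows, where TMEM has 2 genes.

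Single genes differed in how their windows were laid out. TMEM184C had 8 adjacent windows at its 5′ end, a region of 400 bp and the longest among TMEM genes, with signal values of 2.23, 1.82, 1.73, 2.08, 2.47, 2.00, 2.16 and 2.23 in order from the start. Its ninth window, 7514.5 bp from the 5′ end, had 1.25. All 8 windows of the block were stronger than the one outside it. TMEM30A had its 5 windows within 300 bp, with 2.32, 2.75, 2.17, 1.57 and 1.46 from the 5′ end inward. Its strength peaked in the second window and then declined. TMEM41B had a block of 4 at the start, with 1.33, 1.92, 2.43 and 2.90 from the 5′ end inward, and 2 lone windows at 14963.5 bp (2.82) and 32013.5 bp (1.84). TMEM127 had 5 adjacent windows with 2.10, 2.74, 2.41, 1.94 and 1.39 from the 5′ end inward, and 3 others, between 1.21 and 1.61, at 11105.5 bp or more from the 5′ end.

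TMEM140 is known as a gene induced by interferon. Of the 5 genes on the list for interferon and immune background, it alone was listed, beside 28.8% of all RefSeq TMEM genes. Its windows formed a pair at the 5′ end with 1.81 and 2.66 and a further 7 between 16575.5 and 17275.5 bp inside the gene, with 1.14, 1.78, 1.33, 2.42, 1.79, 1.15 and 1.48. The strongest window was thus at the start, and 2.42 was the highest of the inner group. It had 9 of at least 27 tested windows listed. No library without IFN-γ was part of the comparison, so an effect of IFN-γ on these windows was not tested. TMEM154, TMEM176A, TMEM176B and TMEM173, the former name of STING1, had no listed window.

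**Figure D4:**
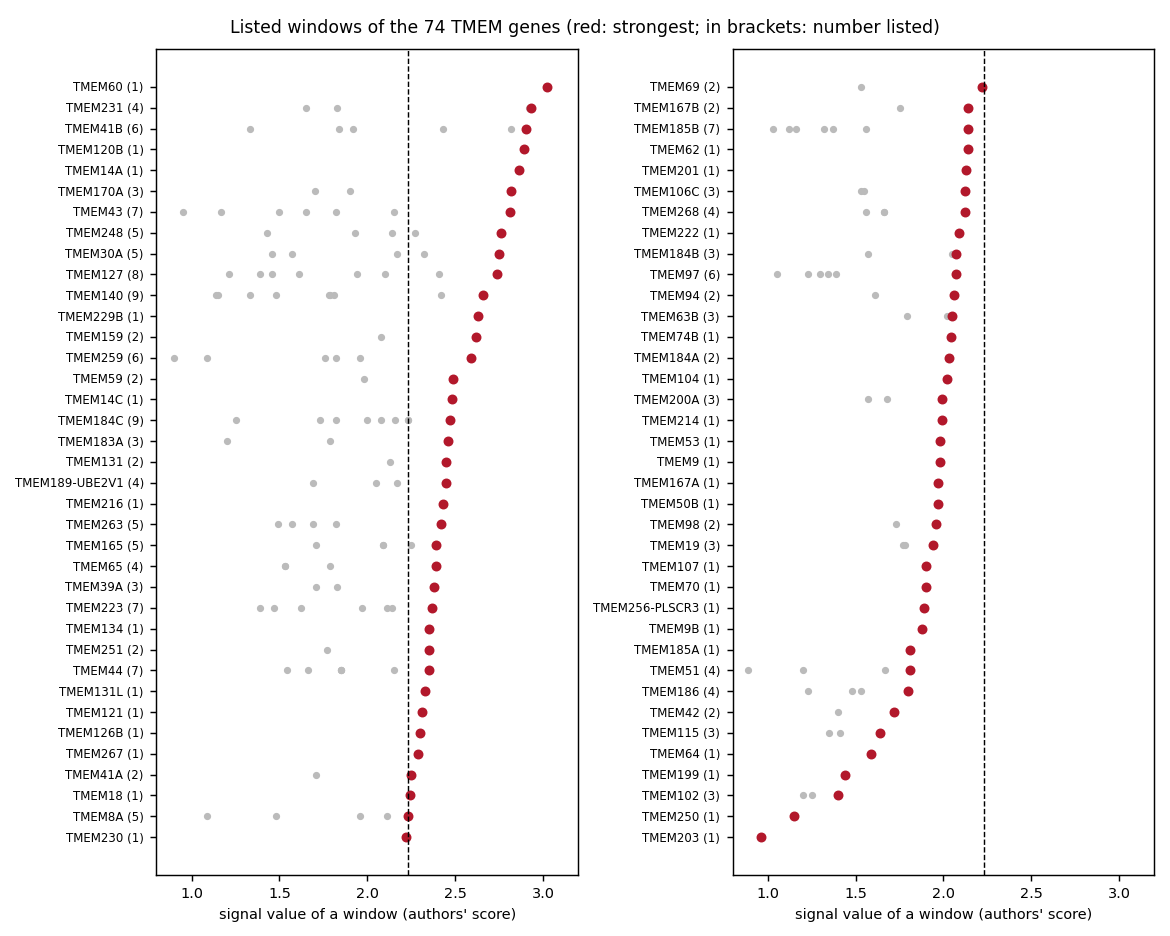
Signal value (x axis, authors' score) of every listed window of the 74 TMEM genes, ordered by the strongest window (red) with the gene's other windows in grey and the number of windows in brackets. The dashed line marks 2.23, the median strongest value of other protein-coding genes, and values run from 3.02 in TMEM60 down to 0.96 in TMEM203.

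At the other end of the order, TMEM203 had a single window with a signal value of 0.96, TMEM250 a single window with 1.15, and TMEM102 had 3 windows with 1.40, 1.20 and 1.25. TMEM203, an ER protein of calcium signalling, ranked above 0.105% of protein-coding genes. Of the windows tested, 1 of 30 (3.33%) was listed in TMEM203 and 1 of 63 (1.59%) in TMEM250. In TMEM102 it was 3 of 36 (8.33%), close to the 8.94% of tested windows over all other protein-coding genes. All 3 windows of TMEM102 overlapped same-strand windows of another gene, so they cannot be assigned to it with certainty.

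By the place of the protein, TMEM genes with a window were found in each of 7 lists of known roles. The lists held 78 genes, of which 37 had a listed window. For all TMEM genes of RefSeq the share was 67 of 233 (28.8%, Wilson interval 23.3% to 34.9%), beside a background of 31.8% of all RefSeq protein-coding genes. The lists hold well-studied genes, and which of them SNU638 cells express was not analysed here. The counts of single lists below are to be read beside these shares. They rest on few genes each, and no difference between a list and the background was tested. The median strongest signal was 2.22 both for the 37 genes on lists and for the 37 on none.

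In the ER and nuclear envelope list, 13 of 23 genes had windows, with a median strongest signal of 2.25. Besides TMEM41B, TMEM170A and TMEM43, TMEM259 (membralin, a component of ER-associated degradation) had 6 windows and a strongest signal of 2.59. TMEM131, which takes part in collagen secretion, had 2.45, TMEM39A 2.38, TMEM41A 2.25 and TMEM201, a protein of the inner nuclear membrane, 2.13. TMEM97, the sigma-2 receptor, had 6 windows and 2.07, next to TMEM94 with 2.06 and TMEM214 with 1.99. TMEM64 (1.59) and TMEM203 were lowest. Values in this list thus spanned nearly the whole range of TMEM genes.

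Of 11 mitochondrial genes, 6 had windows, with a median strongest signal of 2.335. TMEM14C, a porphyrin transporter of haem synthesis, had 1 window with 2.48, and TMEM65 had 4 windows with a strongest of 2.39. TMEM223 had 7 windows and 2.37. TMEM126B and TMEM186, assembly factors of respiratory complex I, had 2.30 and 1.80, and TMEM70, an assembly factor of ATP synthase, had 1.90.

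Golgi and secretory genes were listed in 6 of 8 cases, with a median of 2.055. TMEM59 had 2.49, TMEM165, a manganese and calcium transporter of the Golgi, had 5 windows and 2.39, TMEM167B 2.14, TMEM167A 1.97, TMEM115 1.64 and TMEM199, an assembly factor of the vacuolar ATPase, 1.44. TMEM87A and TMEM87B had no listed window.

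Lysosomal and endosomal genes had windows in 5 of 10 cases, with a median of 2.12. TMEM127 was followed by TMEM230 (2.22), TMEM106C (2.12), TMEM9 (1.98) and TMEM9B (1.88). TMEM106B, a lysosomal protein of neurodegeneration, and TMEM175, a lysosomal ion channel, had no listed window. Among 8 ciliary genes, which form part of the transition zone at the base of the cilium, TMEM231, TMEM216 (2.43) and TMEM107 (1.90) were listed. For the cell surface, channel and lipid transport list the count was 3 of 13, with TMEM30A, TMEM63B, a mechanosensitive ion channel (2.05), and TMEM98 (1.96).

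**Figure D5:**
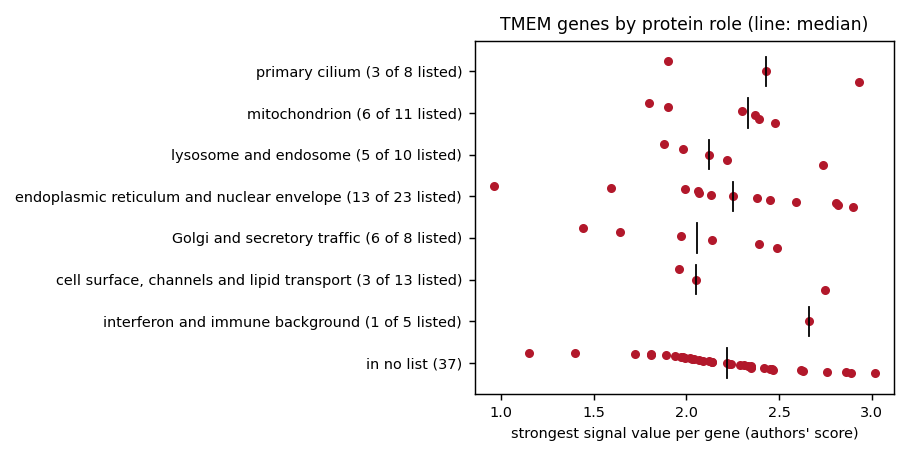
Strongest signal value per TMEM gene (x axis, authors' score) by list of protein role (y axis), with 1 point per listed gene, a black line at the list's median and the listed genes out of all on the list in brackets. The ranges of signal values overlap widely between the lists, and the ER list runs from 0.96 to 2.90.

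RefSeq has 38 TMEM families whose members share a number and differ in a last letter, 85 genes in all. Of these, 28 genes had a window. That share is close to the 28.8% of all TMEM genes of RefSeq and the 31.8% of all RefSeq protein-coding genes. In 7 families at least 2 members were listed, in 13 a single one and in 18 none. TMEM41B had 6 windows and 2.90 and TMEM41A 2 windows and 2.25. TMEM14A and TMEM14C had 1 window each, at 2.86 and 2.48, and TMEM14B had none listed. TMEM184C had 9 windows (2.47), TMEM184B 3 (2.07) and TMEM184A 2 (2.03). TMEM185B had 7 windows with a strongest of 2.14, and TMEM185A had 1 with 1.81. Members of the same family could thus differ several-fold in listed windows. Windows tested also differed in TMEM185B and TMEM185A (80 and 22), but were alike in TMEM41B and TMEM41A (24 and 23). TMEM184C had at least 23 tested, and TMEM184B and TMEM184A had 52 and 55. TMEM131 and TMEM131L (2.45 and 2.33), TMEM167B and TMEM167A, and TMEM9 and TMEM9B were closer to each other in strongest signal.

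Some TMEM values cannot be assigned to 1 gene with certainty. Windows of 8 TMEM genes (10.8%) overlapped same-strand windows of other genes, beside a background of 12.6% of protein-coding genes. All 4 windows of TMEM231 did so, 3 with the lncRNA AC025287.1, which had 3.29 and 3.05 where TMEM231 had 2.93 and 2.92. The strongest window of TMEM170A (2.82) overlapped one of AC009163.5 (2.60), and both windows of TMEM251 overlapped one of AL110118.2 (2.54). Both TMEM189-UBE2V1 and TMEM256-PLSCR3 are readthrough loci, and the first had 2.45 and 2.17 in the 2 windows where UBE2V1 had 2.71 in each. TMEM42, TMEM43 and TMEM102 were the others, and in TMEM43 the overlapping windows were its 2 weakest (1.17 and 0.95). All 3 windows of TMEM102 (1.40, 1.20 and 1.25) overlapped windows of the lncRNA AC113189.2, which had 1.45 to 1.95. The first of them also overlapped one of AC113189.9 (1.36). On the opposite strand, the single window of TMEM50B on chromosome 21 (1.97) overlapped 2 windows of IFNGR2, a subunit of the IFN-γ receptor, with 1.35 and 1.68. Per the labels the library kit keeps the strand.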

How the data were processed

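RIP-seq libraries of 2 IP-YTHDF1 and 2 Input samples were described by 1 deposited table. The submitters' processing notes name STAR 2.7.3a and GRCh38. The peak caller is not given in the sources used here. The authors deposited a signal value and a rank, both treated as a score per window, and a p-value and q-value per window. No column belongs to a library (0 such columns were left unused). Of 26820 rows, 1 repeated row was dropped. Windows were 50 bp, the highest q-value was 0.05, and positions are given from 1.

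Members and lists were chosen with earlier results of these data known. The genes named are the 10 strongest and 3 weakest TMEM genes, those with 9 windows, members of role lists, letter families and genes with overlapping windows.

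Windows tested per gene were computed as q-value times listed windows over p-value at the largest p-value of the gene (above 1e-14), which assumes adjustment gene by gene. It was whole within 1% in 74 of 74 TMEM genes and is a lower bound at 9 windows. Above 50 tested windows any quotient is within 1% of a whole number. The check is therefore void for the 11 TMEM genes in that class. Scripts were tested on simulated data. Symbols were matched to RefSeq GRCh38.p14 by symbol or unambiguous synonym (73 of 74 TMEM genes), and windows were placed when within 1000 bp of the interval. Intervals of medians are binomial. DRACH and other genome searches of whole windows were not run, since no genome was used here. Software was NumPy 2.4.6 with pandas 2.3.3 under Python 3.11.15, SciPy 1.17.1 for intervals, and matplotlib 3.10.9 for plots.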

Additional observations from a re-analysis of the deposited data

How the results depend on the processing

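No paired analysis was possible because replicates have no columns of their own, and leaving out a replicate was not possible for the same reason. The count of 74 listed TMEM genes fell to 43 at a q-value of at most 0.001 and to 21 under a Bonferroni limit over all tested windows, which follows from the stricter limits. It was 70 without windows shared with another gene and 72 without readthrough loci. The median strongest signal of 2.22 became 2.39 at a q-value of at most 0.001 (2.42 in other genes), 1.97 when the median window of a gene replaced the strongest (1.91 in other genes) and 2.065 in genes with 1 listed window (2.07 in other genes). TMEM genes were thus lower than other genes by 0.03 or less in the first and last of these and higher in the median window. The remaining alternatives stayed inside the interval of the main median. Joined regions gave medians of 1 and 2 per gene. A limit of 500 bp in place of 300 bp, chosen after the data were seen, put a window at the 5′ end in 47.9% of TMEM and 43.8% of other genes. The planned share of DRACH and GGAC in whole windows, with its alternative of flanking bases, was not run without a genome.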

Other observations

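Membership rests on the symbol in the deposited table. A further 30 listed protein-coding genes have a former TMEM number among their RefSeq synonyms and were not counted as members, a set looked up after the data were seen. Their strongest signal had a median of 2.24 and ran from 1.65 to 3.81, with a median of 1 window per gene. The 3 highest, HGSNAT (3.81), WDR82 (3.61) and MACO1 (3.40), were above every gene now named TMEM. In the other direction, 6 of the 74 members carry another symbol in RefSeq, such as LDAF1 for TMEM159 (2.62), PGAP6 for TMEM8A (2.23) and VMA12 for TMEM199 (1.44).

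Listed TMEM genes had 3 pairs of neighbours less than 100 kb apart, measured between their windows. TMEM170A and TMEM231 were 74.8 kb apart on chromosome 16 and were both among the 10 strongest. TMEM97 and TMEM199 were 34.4 kb apart on chromosome 17, and TMEM256-PLSCR3 and TMEM102 were 41.5 kb apart on the same chromosome.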
